A study of Mus musculus with 55 samples.

Results

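CD4 cells of the metastatic core were compared with CD4 cells of normal marrow, as libraries of RNA from sorted mouse cells. The titles "CD4 Met" and "CD4 Normal" chose 7 of the 55 libraries of the study, 3 from the core and 4 from normal marrow. The study sorted granulocytes, CD4, CD8 and CD4+CD25+ cells from bone marrow of mice with and without breast cancer growing in bone and sequenced their RNA by MARS-seq, which reads a short tag of each transcript. Core cells were labelled as coming from the bone metastatic lesion and normal cells as coming from bone marrow, and both were labelled as CD4+ T helper cells. Early metastatic marrow gave 4 further CD4 libraries and the peripheral marrow of the late stage gave 4, and these shared the estimate of spread. The labels give these groups no treatment, and no strain, sex, age or tumour line is stated. No label says that each library came from a separate mouse, so the p-values below measure the spread between libraries.

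CD4 T helper cells recognise peptides on MHC class II through the T cell receptor and a costimulatory signal, and direct other immune cells through cytokines. Activation switches on AP-1 and NF-kappaB within hours, together with feedback genes that end the signal, and later the inhibitory receptors PD-1, CTLA-4 and TIGIT, which restrain the cell when it meets their ligands. In tumours, T cells that carry such receptors are the targets of checkpoint antibodies, and in marrow CD4 cells include resting, memory and regulatory cells that enter and leave through chemokine and sphingosine receptors.

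Levels are given as CPM, a gene's recovered reads scaled to the same total in every library, and genes carry the capital symbols of the files (PDCD1 for mouse Pdcd1). A change is the log2 fold change, core minus normal, of the deposited value plus 4. For genes with few reads this scale gives too small a change. A gene passed at an adjusted p under 0.05 over the 4534 tested genes. Recovered reads ran from 178251 to 452849 in the normal and from 160408 to 752158 in the core libraries, so a level of 10 CPM stands for a handful of reads.

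The label was checked against cell type markers before any comparison. CD4 itself was at 357, 488, 477 and 486 CPM in the 4 normal and 597, 419 and 274 CPM in the 3 core libraries. The groups overlapped, and the change was -0.01 ± 0.31 (SE), adjusted p 0.991. The 12 T cell markers summed to 2285, 2839, 2593 and 2716 CPM in normal and 4602, 3974 and 3759 CPM in core libraries, so every core library held more. CD8 T cell markers summed to 35.6 to 74.8 CPM in core and less in normal libraries, and 75.1 to 139.6 CPM of mammary tumour and epithelial markers were in the core and 37.5 to 89.8 CPM in normal libraries, which overlapped.

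Genes of plasmacytoid dendritic cells, which in mice carry surface CD4 and are specialised for type I interferon, were abundant in the normal libraries. A list of 24 such genes, put together after the values were seen, summed to 25329, 27904, 29127 and 23948 CPM in normal and 7234, 3447 and 11776 CPM in core libraries. All 3 core libraries were below all 4 normal ones, while T cell markers ran the other way. TLR9 of that list was at 0 in all 7 libraries. TYROBP, MZB1, BLNK and CD74 of that list also stand on the natural killer, plasma, B and dendritic cell marker lists. TYROBP and CD74, whose values are given below, made up a large part of the sum. The sum is therefore not specific to plasmacytoid dendritic cells. In such bulk RNA, fewer cells of a type and less RNA per cell cannot be told apart. Because the T cell markers moved with the groups, the comparison of core with normal marrow was also computed after scaling each library to its T cell markers, an alternative chosen after the data were seen.

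Markers of other cells split the libraries in ways that the labels do not give. Lung markers summed to 4839.8, 191, 5420.2 and 5973 CPM in normal and 4575, 7255 and 212 CPM in core libraries, high in 3 of 4 normal and 2 of 3 core libraries. Neutrophil markers summed to 2160.2, 6513, 1062 and 1241 CPM in normal and 1319.5, 4701 and 24868 CPM in core libraries, highest in core replicate 3. Monocyte and macrophage markers summed to 2148, 3086, 2513 and 2705 CPM in normal and 2070.1, 8811 and 10080.5 CPM in core libraries. Core replicates 2 and 3 thus stood above the rest in macrophage genes.

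**Figure D1:**
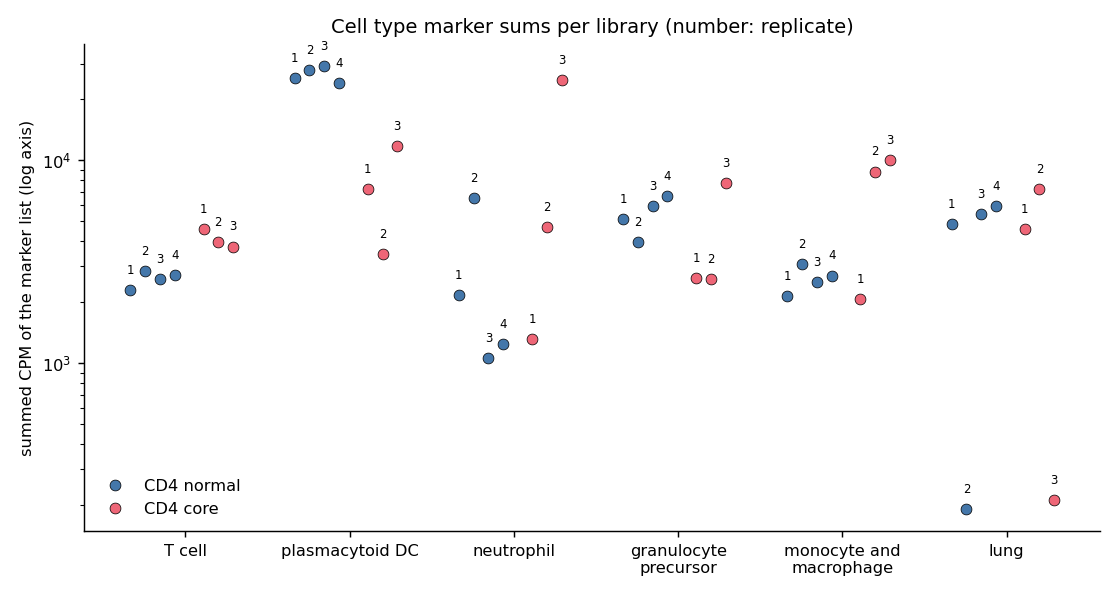
Summed CPM of 6 marker lists (log axis) in each of the 4 normal (blue) and 3 core (red) CD4 libraries, numbered by replicate. T cell sums of the core, 3759 to 4602, lie above those of normal marrow, 2285 to 2839. Plasmacytoid dendritic cell (DC) sums, of a list put together after the values were seen, lie below, and lung sums split both groups.

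Between core and normal marrow 172 of 4534 tested genes passed (3.79%), 91 higher (2.01%) and 81 lower (1.79%) in the core, and 765 had an unadjusted p under 0.05. By limma, no gene passed for early or for peripheral marrow against normal marrow, where 391 and 416 genes had an unadjusted p under 0.05. Of the 91 higher genes, those with the smallest p were VPS37B, BCL2, NFKBIA, CTLA4, BHLHE40, DUSP10, CEBPB, RGS1, CCRL2 and PDCD1. GAPT, ORAI3, PNCK, CHDH, FGD2, TMEM163, ARHGEF10L, PGLS, ATP13A2 and HAAO had the smallest p among the lower genes. The median change of all tested genes was 0.07, and CPM of every core library was above every normal library in 371 genes (8.18%) and below in 530 (11.7%).

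The count rested on single libraries and on the scaling. Without core replicate 2, the deepest core library, 30 genes passed, 24 higher and 6 lower. Without core replicates 1 and 3 in turn 116 and 127 genes passed. Without normal replicates 1, 2, 3 and 4 in turn 88, 103, 86 and 113 genes passed. TMM scaling turned the split from 91 higher and 81 lower, 52.9% of calls higher, into 80 higher and 125 lower, 39.0%. Scaling to the T cell markers moved the median of all genes to -0.49, a shift of -0.56, and left 9 genes higher (0.176%) and 110 lower (2.15%). The 9 genes were BCL2, CCR7, CCRL2, CTLA4, DUSP10, RGS1, TNFAIP3, TNFRSF9 and VPS37B. Among libraries with lung transcripts, 3 normal and 2 core, 384 genes passed, 185 higher and 199 lower. The 1 normal and 1 core library without them gave 0 passing genes by limma, where 125 had an unadjusted p under 0.05. With 1 library in each arm the spread came from other groups, so this 0 says nothing about stability. With lung transcripts as a covariate 120 genes were higher and 109 lower.

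**Figure D2:**
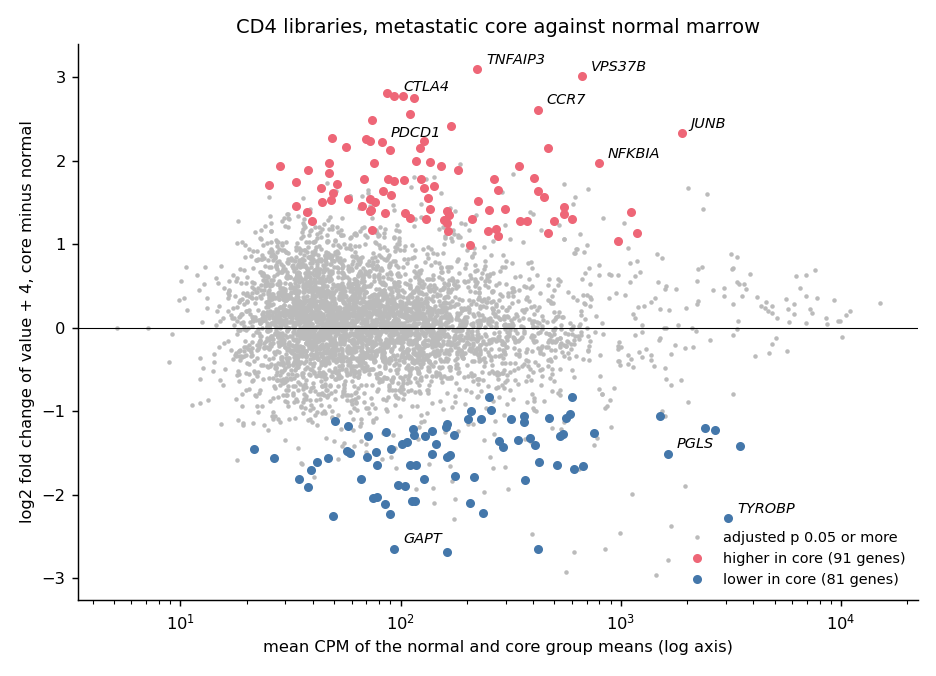
Change of each of the 4534 tested genes (y axis, log2 fold change of value + 4, core minus normal) against the mean CPM of both group means (x axis, log), with the 91 genes higher and the 81 lower in the core coloured. TNFAIP3 and VPS37B changed by 3.10 and 3.01, and TYROBP by -2.28.

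The study is titled after blockade of an inhibitory receptor, TIGIT. Of the 4 tested genes for receptors of that kind and their ligands, 3 were higher in the core. TIGIT, among them, met the filter on low values only through the core libraries. CTLA4, the receptor that outcompetes CD28 for its ligands, was at 12.5, 22.4, 13.9 and 8.83 CPM in the 4 normal libraries and at 205, 152 and 162 CPM in the 3 core libraries. Every core library was far above every normal one, with 173 ± 28.6 (SD) against 14.4 ± 5.76 (SD) CPM (n = 3 and 4), and CTLA4 rose by 2.77 ± 0.39 (SE), adjusted p 0.000323. Early and peripheral marrow held 0 to 19.3 and 12.6 to 51.3 CPM, below the core. PDCD1 encodes PD-1, whose ligand binding dampens signalling of the T cell receptor. It was at 16.6, 39.3, 20.9 and 11.04 CPM in normal and 169.9, 145 and 112 CPM in core libraries. Again no core library overlapped the normal ones, and PDCD1 rose by 2.22 ± 0.37 (SE), adjusted p 0.00160. In early and peripheral marrow it stayed at 5.70 to 29.3 and 14.8 to 22.4 CPM.

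TIGIT, a receptor for the poliovirus receptor CD155 on tumour and myeloid cells, was scarce, with 5 reads in all normal and 47 in all core libraries. Its level was 0, 11.2, 3.48 and 4.42 CPM in normal and 47.4, 34.6 and 56.1 CPM in core libraries. The groups did not overlap and TIGIT rose by 1.71 ± 0.47 (SE), adjusted p 0.0416. The call was near the threshold and was lost without normal replicates 1, 2, 3 and 4 in turn (adjusted p 0.0527 to 0.136), and TIGIT fell below the filter on low values and was not tested without a core library. CD226, which binds the same ligand and costimulates, had 0 reads in the 4 normal libraries and 1 read in the 3 core libraries. It was not tested.

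LAG3, a receptor for MHC class II that T cells and plasmacytoid dendritic cells both use, did not pass. Its level was 220.2, 179.5, 191 and 124 CPM in normal and 63.2, 58.5 and 68.6 CPM in core libraries. Every core library was below every normal one, but the change of -1.18 ± 0.50 (SE) had an adjusted p of 0.230 and did not pass. The plasmacytoid dendritic cell genes were lower in the same core libraries, and their part in the LAG3 values was not tested. HAVCR2, which encodes TIM-3, had 2 reads in normal and 9 reads in core libraries and was not tested.

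Of the 16 inhibitory receptors and ligands in the files, 4 were tested, and 3 passed as higher and 0 as lower, beside 2.01% and 1.79% of all tested genes. Their median change was 1.96, beside 0.07 for all genes. TIGIT met the filter on low values only through the core libraries, where it was high. The count and the median therefore lean toward rises, and they do not cover the untested members. PDCD1 and CTLA4 passed with each of the 7 libraries left out. After scaling to the T cell markers CTLA4 still passed, at 2.09 and adjusted p 0.0274, and PDCD1 did not, at 1.55 and adjusted p 0.0515. TIGIT was too scarce to be tested on that scale. ICOS, a costimulator of helper cells, was not tested either. It was at 8.31, 5.61, 17.4 and 4.42 CPM in normal and 15.8, 58.5 and 56.1 CPM in core libraries, which overlapped.

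**Figure D3:**
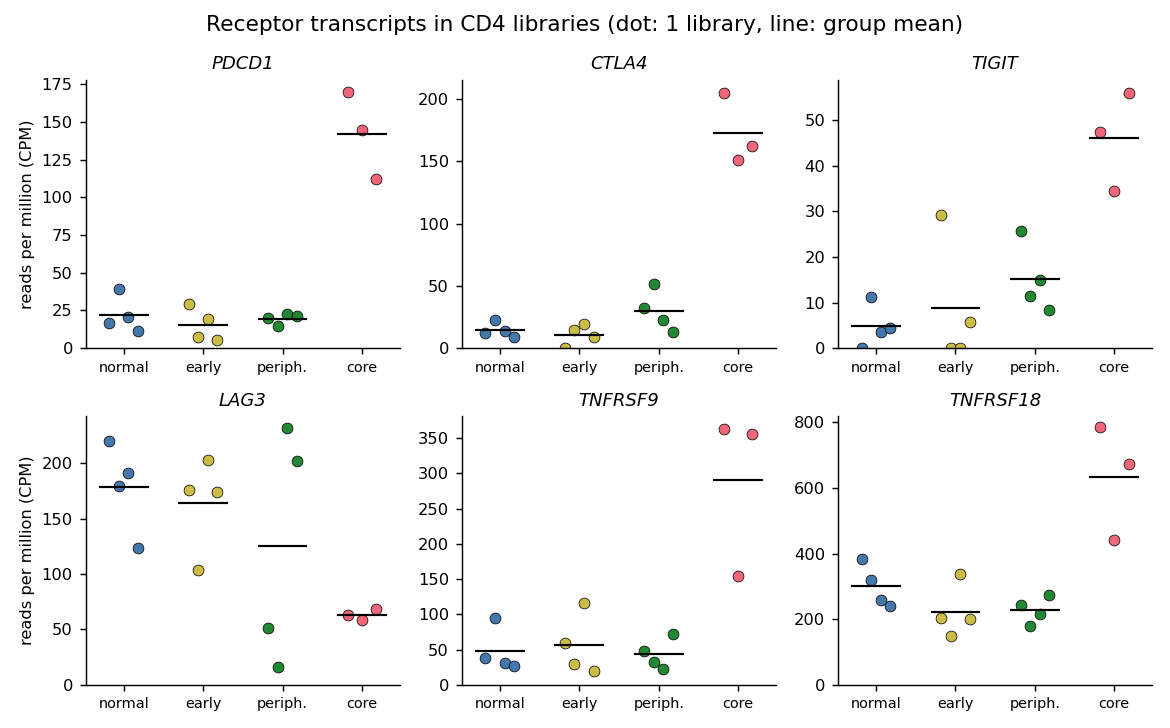
CPM of 6 receptor genes in each CD4 library of normal, early, peripheral (periph.) and core marrow. Each dot is 1 library and each line a group mean. PDCD1, CTLA4, TIGIT, TNFRSF9 and TNFRSF18 are highest in the 3 core libraries, and LAG3, at 58.5 to 68.6 CPM in the core, lies below its normal libraries.

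Of the tested costimulatory receptors of the TNF receptor family, TNFRSF9 and TNFRSF18 passed, and CD27, TNFRSF25 and TNFRSF4 did not (changes 0.0031, 0.36 and 1.39). TNFRSF9, which encodes the activation receptor 4-1BB, was at 37.4, 95.4, 31.3 and 26.5 CPM in normal and 363, 154 and 355 CPM in core libraries. Normal replicate 2 stood out at 95.4 CPM but still lay below the core, and TNFRSF9 rose by 2.41 ± 0.44 (SE), adjusted p 0.00462. TNFRSF18 encodes GITR, which regulatory and activated T cells carry. At 382, 319.8, 258 and 241 CPM in normal and 786, 443 and 673 CPM in core libraries, it rose by 1.14 ± 0.27 (SE), adjusted p 0.0194, without overlap. CD6, an adhesion receptor that tunes T cell activation, rose by 1.28 ± 0.30 (SE), adjusted p 0.0186, at 187 to 251 CPM in normal and 457 to 644 CPM in core libraries. In all, 3 of 8 tested costimulatory genes passed as higher and 0 as lower, beside 2.01% and 1.79% of all tested genes. Their median change was 1.02.

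These calls differed in how well they held. TNFRSF9 passed in every leave-out and under the T cell marker scaling, where its change was 1.70, adjusted p 0.0458. TNFRSF18 was lost without normal replicates 3 and 4 or core replicates 1 and 3 in turn (adjusted p 0.0559 to 0.109). CD6 was lost without normal replicate 1 or core replicates 1 and 2 in turn (adjusted p 0.0581 to 0.0935). Scaled to the T cell markers, TNFRSF18 and CD6 changed by 0.39 and 0.54 and did not pass, with adjusted p 0.565 and 0.347.

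The regulatory T cell list has 10 tested genes. Of these 3 passed as higher and 0 as lower, beside 2.01% and 1.79% of all tested genes. The 3 were TNFRSF18, CTLA4 and TNFRSF9, which activated helper cells express too. FOXP3, the factor that defines regulatory T cells, was at 24.9, 28.1, 38.3 and 35.3 CPM in normal and 94.8, 34.6 and 68.6 CPM in core libraries. Core replicate 2 lay within the normal range, and the change of 0.82 ± 0.54 (SE) did not pass, adjusted p 0.498. IL2RA, which encodes CD25, held 8 reads in normal and 20 in core libraries and was not tested. The list's median change was 1.04, and 0.30 when scaled to the T cell markers.

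Genes of NF-kappaB feedback stood among the clearest rises. NFKBIA encodes the inhibitor that holds NF-kappaB in the cytoplasm and is itself switched on by it. It was at 324, 258, 386 and 358 CPM in normal and 1126, 977 and 1683 CPM in core libraries. Every core library was above every normal one, and NFKBIA rose by 1.97 ± 0.28 (SE), adjusted p 0.000323. Early and peripheral marrow, at 170.2 to 387 and 289 to 480.2 CPM, stayed at or near the normal levels. TNFAIP3 encodes A20, an enzyme that edits ubiquitin chains and ends NF-kappaB signalling. Its level was 24.9, 56.1, 27.8 and 37.5 CPM in normal and 280.5, 331 and 617 CPM in core libraries, highest in core replicate 3. The groups were far apart, and TNFAIP3 rose by 3.10 ± 0.50 (SE), adjusted p 0.00200.

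The bases just upstream of both genes are shown because they are feedback genes that rose together, beside those of PDCD1 and CTLA4 for comparison. They read 5′ to 3′ on the gene's strand up to the base before the RefSeq start (GRCm38.p6), Nfkbia at chr12:55492648-55492897 (minus strand), Tnfaip3 at chr10:19015411-19015547 (minus strand), Pdcd1 at chr1:94052554-94052803 (minus strand) and Ctla4 at chr1:60908775-60909024 (plus strand). Capitals mark matches, on either strand, to the NF-kappaB consensus or to the AP-1 motif TGANTCA. For Tnfaip3 the 137 bases outside an annotated exon are printed.
Nfkbia: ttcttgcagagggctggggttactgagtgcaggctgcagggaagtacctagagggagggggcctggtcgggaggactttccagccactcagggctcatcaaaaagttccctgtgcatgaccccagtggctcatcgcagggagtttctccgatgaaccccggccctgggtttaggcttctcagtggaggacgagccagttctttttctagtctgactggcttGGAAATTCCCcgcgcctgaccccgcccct
Tnfaip3: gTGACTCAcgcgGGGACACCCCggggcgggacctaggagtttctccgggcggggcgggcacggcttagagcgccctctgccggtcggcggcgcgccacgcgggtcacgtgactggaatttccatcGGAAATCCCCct
Pdcd1: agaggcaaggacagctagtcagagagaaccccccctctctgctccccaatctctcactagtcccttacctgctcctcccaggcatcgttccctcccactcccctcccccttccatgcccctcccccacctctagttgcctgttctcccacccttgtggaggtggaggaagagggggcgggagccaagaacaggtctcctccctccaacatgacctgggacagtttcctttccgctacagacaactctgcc
Ctla4: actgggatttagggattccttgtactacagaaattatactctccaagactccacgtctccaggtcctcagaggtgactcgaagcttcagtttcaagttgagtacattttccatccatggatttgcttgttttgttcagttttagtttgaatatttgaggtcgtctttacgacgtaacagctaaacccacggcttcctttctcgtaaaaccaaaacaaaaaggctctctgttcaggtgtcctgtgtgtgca
Nfkbia holds 1 NF-kappaB match, at bases -29 to -20 from the start. Tnfaip3 holds an AP-1 match at -136 to -130, 1 NF-kappaB match at -125 to -116 and another at -12 to -3, and none of these overlap. Neither motif occurs in the Pdcd1 and Ctla4 windows, which says only that these letters are not in them.

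Across genes, 73 of the 91 higher, 64 of the 81 lower and 3678 of the 4534 tested genes matched a RefSeq promoter. In the 250 bases before the start the NF-kappaB consensus occurred in 14 of the 73 higher genes (19.2%), 7 of the 64 lower genes (10.9%), 10.5% of tested genes and 7.25% of all 32851 promoters. The 14 higher genes were ALS2CL, CCRL2, FOSL2, HILPDA, IFITM3, IFNGR2, KCNN4, NFKBIA, RAMP3, RNF145, TGIF1, TNFAIP3, TNFRSF9 and VIM. The AP-1 motif occurred in 6 of the 73 higher genes (8.22%), 4 of the 64 lower genes (6.25%), 5.03% of tested genes and 6.75% of all promoters. These shares are descriptions and were not tested.

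Of 14 tested NF-kappaB subunits and feedback inhibitors 4 passed as higher and 0 as lower, beside 2.01% and 1.79% of all tested genes. Their median change was 0.61. BIRC3, a ubiquitin ligase that protects cells from TNF, rose by 1.37 ± 0.38 (SE), adjusted p 0.0398, at 16.6 to 78.5 CPM in normal and 83.0 to 181 CPM in core libraries. BCL3, a nuclear partner of NF-kappaB subunits, rose by 1.17 ± 0.32 (SE), adjusted p 0.0398, at 29.1 to 62.7 CPM in normal and 71.1 to 125 CPM in core libraries. BIRC3 was lost without normal replicates 1, 3 and 4 or core replicates 1, 2 and 3 in turn (adjusted p 0.0504 to 0.172). BCL3 was lost without normal replicates 1, 2 and 4 or core replicates 2 and 3 in turn (adjusted p 0.0726 to 0.238). NFKBIA and TNFAIP3 passed in every leave-out, and scaled to the T cell markers TNFAIP3 still passed, at 2.38 and adjusted p 0.0274, while NFKBIA, at 1.21 and adjusted p 0.0782, did not.

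Immediate early and stress response genes, which cells switch on within minutes of a stimulus, were also examined. Of 22 tested, 8 passed as higher and 0 as lower, beside 2.01% and 1.79% of all tested genes. The median change of the list was 1.15. JUNB, a subunit of AP-1, was at 1068, 331, 675 and 702 CPM in normal and 2698, 3910.1 and 2649 CPM in core libraries. Normal replicate 1 was the highest of the normal libraries, yet below every core library, and JUNB rose by 2.33 ± 0.45 (SE), adjusted p 0.00850. DUSP1, a phosphatase that switches off MAP kinases, was at 191, 78.5, 185 and 245 CPM in normal and 924, 905 and 436 CPM in core libraries. Its groups did not overlap, and it rose by 2.15 ± 0.46 (SE), adjusted p 0.0154.

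The other risers of that list had the same order of groups, with each core library above each normal one. They were FOSL2, another AP-1 subunit (change 1.97), KLF6, a zinc finger factor (change 1.99), PPP1R15A, which restarts translation after stress (change 1.93), DUSP2, a phosphatase of activated lymphocytes (change 1.64), IER2 (change 1.57) and the stress gene GADD45A (change 1.38). KLF6 passed in every leave-out, and FOSL2 without each of the 4 normal libraries. JUNB was lost without core replicate 2 (adjusted p 0.0807), IER2 without core replicate 2 (adjusted p 0.0563) and PPP1R15A without core replicate 2 (adjusted p 0.0566). DUSP1 was lost without core replicate 1 (adjusted p 0.0594) and without core replicate 2 (adjusted p 0.102) and DUSP2 without core replicate 1 (adjusted p 0.0606) and without core replicate 2 (adjusted p 0.0818). GADD45A was lost without normal replicates 1, 2, 3 and 4 in turn (adjusted p 0.0712 to 0.138). With a core library left out FOSL2 and GADD45A fell below the filter on low values and were not tested. Scaled to the T cell markers 0 of 21 tested members passed by limma, and the median was 0.37.

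DUSP10, a phosphatase for the kinases p38 and JNK, was at 8.31, 5.61, 20.9 and 8.83 CPM in normal and 162, 231 and 93.5 CPM in core libraries. The groups were far apart, 10.9 ± 6.80 (SD) against 162 ± 68.9 (SD) CPM (n = 4 and 3), and DUSP10 rose by 2.82 ± 0.44 (SE), adjusted p 0.00101. VPS37B, a subunit of the ESCRT-I complex that sorts membrane proteins for breakdown, was at 149.6, 146, 146 and 115 CPM in normal and 841, 1752 and 979 CPM in core libraries. It had the smallest p of all tested genes, with a rise of 3.01 ± 0.37 (SE) and adjusted p 0.000223. Both passed in every leave-out and under the T cell marker scaling, at 2.13 and 2.25, adjusted p 0.0274 and 0.00694. Heat shock genes, which protect proteins under stress, had 0 of 9 tested members passing by limma, edgeR, DESeq2 and limma-voom, and 1 with an unadjusted p under 0.05, with a median change of 0.53.

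Among 15 tested effector and exhaustion transcription factors, 2 passed as higher and 0 as lower, beside 2.01% and 1.79% of all tested genes. Their median change was 0.72. BHLHE40, which supports cytokine production by activated helper cells, was at 24.9, 61.7, 45.3 and 26.5 CPM in normal and 189.6, 172 and 256 CPM in core libraries. No core library overlapped a normal one, and BHLHE40 rose by 2.15 ± 0.31 (SE), adjusted p 0.000417. CREM, a cyclic AMP responsive factor, had 5 reads in normal and 69 in core libraries, at 0, 0, 10.4 and 4.42 and 35.6, 67.8 and 56.1 CPM. It rose by 1.94 ± 0.45 (SE), adjusted p 0.0161, a call lost without normal replicate 1 (adjusted p 0.0564) and not tested without a core library. BHLHE40 passed in every leave-out, and on the T cell marker scale it changed by 1.45, adjusted p 0.0612.

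GATA3, the factor of T helper 2 cells, and NR4A3, an orphan receptor induced by T cell receptor signals, had the next smallest p and did not pass. GATA3 was at 12.5, 44.9, 34.8 and 44.2 CPM in normal and 169.9, 85.1 and 81.0 CPM in core libraries, a change of 1.46 ± 0.44 (SE), adjusted p 0.0601. NR4A3 was at 24.9, 16.8, 20.9 and 26.5 CPM in normal and 83.0, 146 and 56.1 CPM in core libraries, a change of 1.58 ± 0.49 (SE), adjusted p 0.0746. Neither overlapped between groups. TOX, a factor of exhausted T cells, held 15 reads in normal and 36 in core libraries, at 12.5, 16.8, 17.4 and 8.83 and 39.5, 29.2 and 24.9 CPM. It was not tested.

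**Figure D4:**
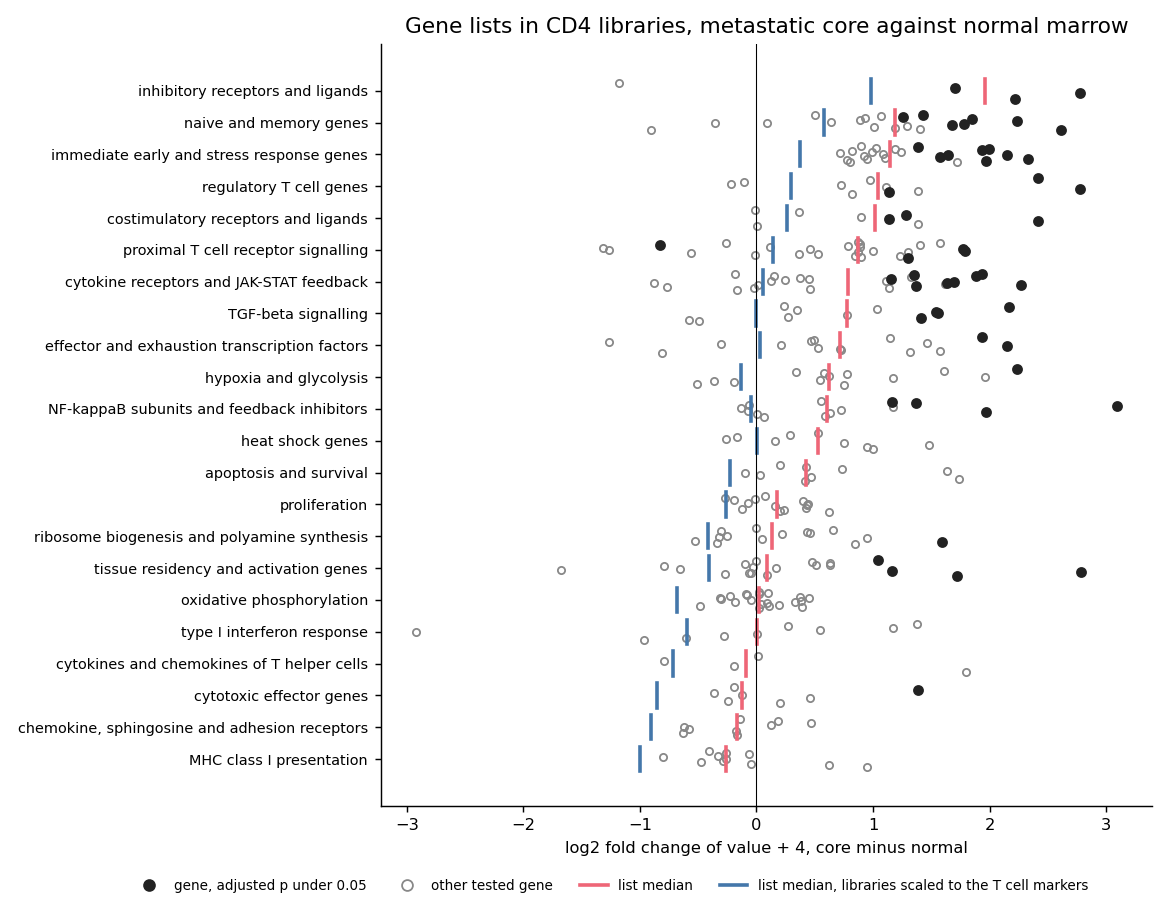
Change of each tested member (x axis, log2 fold change of value + 4, core minus normal) of 22 gene lists (y axis). Filled circles passed at adjusted p under 0.05, red bars are list medians and blue bars the medians after scaling to the T cell markers; inhibitory receptors have the highest median, 1.96, and MHC class I presentation the lowest, -0.26.

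Genes of resting and memory T cells were examined next. Of 19 tested naive and memory genes 7 passed as higher and 0 as lower, beside 2.01% and 1.79% of all tested genes. Their median change was 1.19. CCR7, the receptor that guides naive and central memory T cells to lymph nodes, was at 99.7, 107, 122 and 106 CPM in normal and 597, 1114 and 480.0 CPM in core libraries. The core libraries stood clear of the normal ones, and CCR7 rose by 2.61 ± 0.49 (SE), adjusted p 0.00797. BCL2, which blocks cell death, was at 16.6, 67.3, 45.3 and 33.1 CPM in normal and 186, 251 and 212 CPM in core libraries. It rose by 2.23 ± 0.30 (SE), adjusted p 0.000308, and peripheral marrow lay between the groups at 103 to 113 CPM. IL7R, the survival receptor of resting T cells, was at 16.6, 67.3, 10.4 and 42.0 CPM in normal and 107, 78.4 and 237 CPM in core libraries and rose by 1.78 ± 0.40 (SE), adjusted p 0.0129.

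S1PR1, the receptor by which T cells leave tissue, was at 58.2, 33.7, 83.5 and 50.8 CPM in normal and 169.9, 274 and 149.6 CPM in core libraries. It did not overlap and rose by 1.68 ± 0.47 (SE), adjusted p 0.0439. The remaining risers were DGKA, a lipid kinase that limits T cell receptor signals (change 1.43), RAPGEF6, an activator of the GTPase Rap (change 1.85), and ACTN1, an actin cross-linker (change 1.26). TCF7 and LEF1, the factors that maintain naive and memory cells, were looked at after their values were seen. TCF7 was at 24.9 to 69.6 CPM in normal and 112 to 152 CPM in core libraries and did not pass (change 1.41, adjusted p 0.216). LEF1, with a change of 1.19, had an adjusted p of 0.231, and KLF2, the factor that drives S1PR1, of 0.0596 at a change of 1.01.

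BCL2 passed in every leave-out, and CCR7 was lost without core replicate 2 (adjusted p 0.0551). Both also passed on the T cell marker scale, at 1.54 and 1.86, adjusted p 0.0458 and 0.0303, the only members of the list that did. IL7R was lost without normal replicate 3 (adjusted p 0.0547) and without core replicate 3 (adjusted p 0.0849) and DGKA without core replicate 1 (adjusted p 0.0522) and without core replicate 2 (adjusted p 0.101). S1PR1 was lost with any 1 of the 7 libraries left out (adjusted p 0.0587 to 0.290), and ACTN1 with any 1 of the 7 libraries left out (adjusted p 0.0632 to 0.195). RAPGEF6 was lost without normal replicates 2, 3 and 4 or core replicates 2 and 3 in turn (adjusted p 0.0505 to 0.232). The median of the list on that scale was 0.58.

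Residency and activation genes had changes in both directions, around a median change of 0.09. Of 19 tested, 4 passed as higher and 0 as lower, beside 2.01% and 1.79% of all tested genes. RGS1, which damps chemokine receptor signals and is high in T cells that stay in tissue, was at 8.31, 28.1, 3.48 and 13.2 CPM in normal and 75.1, 145 and 355 CPM in core libraries. It was highest in core replicate 3 and rose by 2.78 ± 0.45 (SE), adjusted p 0.00147. CD69, an early activation antigen that holds cells in tissue by removing S1PR1 from the surface, was at 16.6, 28.1, 6.96 and 11.04 CPM in normal and 47.4, 59.8 and 156 CPM in core libraries. It rose by 1.72 ± 0.42 (SE), adjusted p 0.0197, again led by core replicate 3. CXCR4, the receptor for the marrow chemokine CXCL12, rose by 1.16 ± 0.30 (SE), adjusted p 0.0266, at 141 to 179.5 CPM in normal and 280.5 to 398 CPM in core libraries. VIM, an intermediate filament gene, rose by 1.05 ± 0.25 (SE), adjusted p 0.0195.

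CXCR3, a receptor of T helper 1 cells that plasmacytoid dendritic cells also carry, was the member with the most negative change. It was at 419.6, 353, 418 and 389 CPM in normal and 169.9, 30.6 and 187 CPM in core libraries, a change of -1.68 ± 0.50 (SE) that did not pass, adjusted p 0.0753. RGS1 passed in every leave-out and on the T cell marker scale, at 2.13 and adjusted p 0.0303. CD69 was lost without normal replicates 3 and 4 or core replicates 2 and 3 in turn (adjusted p 0.0523 to 0.144), and CXCR4 without normal replicates 1, 3 and 4 or core replicates 1, 2 and 3 in turn (adjusted p 0.0515 to 0.202). VIM was lost without normal replicates 2 and 3 or core replicates 2 and 3 in turn (adjusted p 0.0548 to 0.129). On the T cell marker scale these 3 changed by 1.13, 0.43 and 0.29 and did not pass.

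Of 11 tested genes of TGF-beta signalling 4 passed as higher and 0 as lower, beside 2.01% and 1.79% of all tested genes. Their median change was 0.78. TGFBR2, the receptor chain that binds TGF-beta, was at 24.9, 22.4, 41.8 and 55.2 CPM in normal and 86.9, 144 and 99.7 CPM in core libraries. It rose by 1.41 ± 0.35 (SE), adjusted p 0.0215, without overlap. SMAD7, the inhibitor that TGF-beta itself induces, was at 66.5, 72.9, 48.7 and 66.2 CPM in normal and 146, 217 and 249 CPM in core libraries. It rose by 1.56 ± 0.31 (SE), adjusted p 0.00682. TGIF1 and SKI, which repress SMAD targets, rose by 2.17 ± 0.43 (SE) and 1.54 ± 0.38 (SE), adjusted p 0.00615 and 0.0211. The ligand TGFB1 did not pass, at 631, 684, 606 and 439 CPM in normal and 324, 316 and 524 CPM in core libraries, a change of -0.50 ± 0.30 (SE), adjusted p 0.431. TGIF1 passed without each of the 4 normal libraries and was not tested without a core library. SMAD7 was lost without core replicate 2 (adjusted p 0.0612), and TGFBR2 without normal replicates 1 and 2 or core replicate 2 in turn (adjusted p 0.0684 to 0.191). SKI was lost without normal replicates 1 and 4 or core replicates 1 and 2 in turn (adjusted p 0.0549 to 0.202). On the T cell marker scale 0 of 12 tested members passed by limma, and the median was -0.01.

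T cells read interleukins and interferons through cytokine receptors and the JAK-STAT pathway. Of 24 tested genes of this list 8 passed as higher and 0 as lower, beside 2.01% and 1.79% of all tested genes. Their median change was 0.79. JAK1, a kinase shared by many cytokine receptors, was at 37.4, 72.9, 45.3 and 110.4 CPM in normal and 209, 251 and 193 CPM in core libraries. It rose by 1.70 ± 0.32 (SE), adjusted p 0.00483, and peripheral marrow was between the groups at 142 to 173 CPM. PIM1, a survival kinase that STAT factors induce, was at 54.0, 56.1, 24.4 and 77.3 CPM in normal and 174, 126 and 455 CPM in core libraries and rose by 1.94 ± 0.38 (SE), adjusted p 0.00615. SOCS3, a feedback inhibitor of cytokine signals, was at 87.2, 84.2, 45.3 and 66.2 CPM in normal and 174, 265 and 443 CPM in core libraries and rose by 1.89 ± 0.40 (SE), adjusted p 0.00837. In these genes too each core library exceeded each normal one.

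The other risers were IFNGR2, a chain of the interferon gamma receptor (change 1.64), IL21R, the receptor for the follicular helper cytokine IL-21 (change 1.37), STAT5B (change 1.16), CISH, a feedback inhibitor that STAT5 induces (change 1.35), and IL1R2, a decoy receptor for IL-1 (change 2.27). JAK1 and PIM1 passed in every leave-out. SOCS3 was lost without core replicate 2 (adjusted p 0.0566) and without core replicate 3 (adjusted p 0.0533), IFNGR2 without core replicate 2 (adjusted p 0.127) and CISH without normal replicates 2, 3 and 4 or core replicates 1 and 3 in turn (adjusted p 0.0508 to 0.135). STAT5B was lost without normal replicates 2 and 3 or core replicates 1 and 2 in turn (adjusted p 0.0619 to 0.139), IL21R without normal replicates 1, 2, 3 and 4 or core replicates 1 and 2 in turn (adjusted p 0.0606 to 0.291) and IL1R2 without normal replicates 1, 3 and 4 or core replicates 2 and 3 in turn (adjusted p 0.0504 to 0.135). On the T cell marker scale 0 of 26 tested members passed by limma, with a median of 0.05.

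Some of the risers were highest in the library with the most neutrophil RNA, core replicate 3. Among them were NFKBIA, TNFAIP3, BIRC3, KLF6, IL7R, RGS1, CD69, BHLHE40, PIM1 and SOCS3, whose values are given above. Others were highest in another core library, such as CTLA4 and PDCD1 in core replicate 1 and VPS37B, BCL2 and CCR7 in core replicate 2. Values of IL1R2, CCRL2 and CEBPB are given here. IL1R2 was at 4.15, 28.1, 0 and 13.2 CPM in normal and 35.6, 81.1 and 268 CPM in core libraries. CCRL2, an atypical receptor that binds chemerin, was at 12.5, 11.2, 10.4 and 4.42 CPM in normal and 59.3, 93.1 and 262 CPM in core libraries and rose by 2.49 ± 0.41 (SE), adjusted p 0.00160. CEBPB, a transcription factor of inflamed myeloid cells, was at 262, 140.3, 132 and 197 CPM in normal and 435, 577 and 854 CPM in core libraries and rose by 1.79 ± 0.28 (SE), adjusted p 0.00101. All 3 were highest in core replicate 3, whose neutrophil markers were at 24868 CPM against 1062 to 6513 CPM in normal libraries. S100A8, a neutrophil gene, was at 1138, 1980.3, 275 and 322 CPM in normal and 454, 1514 and 10037 CPM in core libraries, and C1QA, a macrophage gene, at 179, 471, 178 and 291 and 182, 1458 and 1770.5 CPM, both overlapping. Without core replicate 3 CCRL2 changed by 2.00, adjusted p 0.0181, and CEBPB by 1.60, adjusted p 0.00906, while IL1R2, at 1.64, did not pass, adjusted p 0.135. In core replicate 1, where neutrophil markers were at 1320 CPM, all 3 were above every normal library. For IL1R2 the gap was small, 35.6 CPM against 28.1 CPM in normal replicate 2, and both levels stand for few reads. The part of myeloid cells in these values, or in the other risers that were highest in core replicate 3, was not tested.

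The machinery of the T cell receptor was higher in part. Of 25 tested genes 3 passed as higher and 1 as lower, beside 2.01% and 1.79% of all tested genes. The median change was 0.87, and 0.14 on the T cell marker scale. CD3D, CD3E, CD3G, CD247, CD4, CD5 and LCK of this list are among the markers used for that scaling. The smaller median, and the smaller CD3D change on that scale given below, are therefore partly built in. CD3D, a chain of the receptor complex, was at 187, 477, 379 and 464 CPM in normal and 829.6, 862 and 792 CPM in core libraries. It rose by 1.30 ± 0.36 (SE), adjusted p 0.0453. PTPN22, a phosphatase that restrains signals of the receptor, rose by 1.77 ± 0.39 (SE), adjusted p 0.0112, at 20.9 to 56.1 CPM in normal and 122 to 237 CPM in core libraries. CSK, the kinase that holds LCK inactive, fell: it was at 1001, 735, 769 and 674 CPM in normal and 395, 360.3 and 455 CPM in core libraries, a change of -0.83 ± 0.23 (SE), adjusted p 0.0415.

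CD3D was lost with any 1 of the 7 libraries left out (adjusted p 0.0532 to 0.207), and CSK with any 1 of the 7 libraries left out (adjusted p 0.0536 to 0.202). PTPN22 was lost without core replicate 2 (adjusted p 0.123). On the T cell marker scale CSK alone passed, at -1.57 and adjusted p 0.0384, and CD3D and PTPN22 changed by 0.55 and 1.09. That scale lowers the core libraries in general, so it favours the CSK call. LAT, the adaptor that joins the receptor to its pathways, was close to the threshold with a change of 1.30 ± 0.37 (SE), adjusted p 0.0544. CD3E changed by 0.90 ± 0.37 (SE), adjusted p 0.208.

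Among effector genes, IFNG, CD40LG and GZMB had few reads. IFNG, the T helper 1 cytokine, had 7 reads in normal and 17 in core libraries, and CD40LG, the ligand by which helper cells license B and dendritic cells, had 1 and 4. GZMB, a protease of killer granules, had 5 reads in normal and 54 in core libraries, at 4.15, 0, 13.9 and 0 and 55.3, 50.5 and 12.5 CPM, where core replicate 3 fell within the normal range. These 3 genes were not tested. Of 7 tested cytotoxic effector genes 1 passed as higher and 0 as lower, beside 2.01% and 1.79% of all tested genes. This was SRGN, the proteoglycan that packs granules of many blood cells. SRGN rose by 1.38 ± 0.29 (SE), adjusted p 0.00797, at 557 to 696 CPM in normal and 1224 to 2294 CPM in core libraries. It passed in every leave-out.

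HILPDA, a hypoxia-induced gene that promotes lipid droplets, was at 20.8, 16.8, 20.9 and 11.04 CPM in normal and 134, 130.3 and 118 CPM in core libraries. The 3 core libraries lay close together, and HILPDA rose by 2.24 ± 0.41 (SE), adjusted p 0.00462, in every leave-out. It was the 1 of 13 tested hypoxia and glycolysis genes that passed, and 0 were lower, with a median change of 0.62. Of all tested genes, 2.01% passed as higher and 1.79% as lower. NPM1, a nucleolar chaperone, was the 1 of 14 tested ribosome biogenesis and polyamine genes that passed, with 0 lower. It was at 8.31, 78.5, 20.9 and 66.2 CPM in normal and 67.2, 152 and 193 CPM in core libraries, which overlapped, and changed by 1.59 ± 0.40 (SE), adjusted p 0.0236, a call lost without normal replicates 1 and 3 or core replicates 2 and 3 in turn (adjusted p 0.0873 to 0.157).

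Several lists gave no passing gene. With limma, 0 of 21 tested oxidative phosphorylation genes and 0 of 14 proliferation genes passed, 0 of each had an unadjusted p under 0.05, and edgeR, DESeq2 and limma-voom called 0 of them. Their median changes were 0.02 and 0.18, beside 0.07 for all genes. Of 9 type I interferon genes 0 passed by limma and edgeR, 4 had an unadjusted p under 0.05, and DESeq2 called 1 higher and 1 lower and limma-voom 1 higher. Of 11 MHC class I presentation genes 0 passed by limma and edgeR, 3 had an unadjusted p under 0.05, and DESeq2 and limma-voom each called 1 lower. Of 9 apoptosis and survival genes and 9 chemokine and adhesion receptors 0 passed with any of these tools, and 3 and 1 had an unadjusted p under 0.05. Genes of these kinds on other lists did pass, among them the receptors CCR7, CXCR4 and S1PR1 and the survival genes BCL2 and BIRC3. Of 4 T helper cytokines and chemokines 0 passed by limma, edgeR and limma-voom, 1 passed as higher by DESeq2 and 1 had an unadjusted p under 0.05.

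The genes lower in the core included genes of B cells, myeloid cells and plasmacytoid dendritic cells. GAPT, a membrane adaptor of B and myeloid cells, was at 145, 252, 174 and 119 CPM in normal and 15.8, 2.66 and 24.9 CPM in core libraries. It fell to 0.0837 of its normal mean in CPM, a change of -2.65 ± 0.48 (SE), adjusted p 0.00473. Peripheral and early marrow lay below normal marrow as well, at 1.14 to 46.2 and 9.67 to 117 CPM. TYROBP, the signalling adaptor of natural killer and myeloid cells, was at 4512, 5128, 5991 and 4465 CPM in normal and 1154, 380.2 and 1864 CPM in core libraries. Core replicate 2 was the lowest, and TYROBP fell with a change of -2.28 ± 0.47 (SE), adjusted p 0.0128. CD74, the invariant chain of MHC class II, was at 4466, 5161, 5887 and 4635 CPM in normal and 1402, 1145 and 3167 CPM in core libraries, a change of -1.42 ± 0.36 (SE), adjusted p 0.0284.

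The plasmacytoid dendritic cell list was chosen after the values were seen. Of its 19 tested genes 8 passed as lower and 0 as higher, beside 1.79% and 2.01% of all tested genes. Their median change was -1.67. Besides TYROBP and CD74 these were LY6D, a marker of early lymphoid cells (change -2.10), PLAC8 (change -1.65), UNC93B1, which carries nucleic acid receptors to endosomes (change -1.65), MZB1, a chaperone of the secretory pathway (change -1.78), BLNK, a B cell receptor adaptor (change -1.65), and GRN, a lysosomal growth factor gene (change -1.23). Core and normal libraries overlapped in PLAC8 only. Of the members that did not pass, 7 changed by -1.99 to -0.26. Among these were the transcription factors TCF4 (change -0.51, adjusted p 0.794) and RUNX2 (change -1.27, adjusted p 0.256). The other 4, with the most negative changes, are given here. BST2 was at 2177, 511, 651 and 707 CPM in normal and 154, 23.9 and 168 CPM in core libraries (change -2.92, adjusted p 0.0962). IRF8 and SPIB, transcription factors of the lineage, changed by -2.37 and -2.68, and COX6A2 by -2.96, with adjusted p 0.0750, 0.101 and 0.0761. None of these 4 passed, although every core library was below every normal one.

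In leave-outs GAPT passed every time, and MZB1, BLNK and TYROBP were each lost without core replicate 2, at adjusted p 0.0973, 0.123 and 0.0563. UNC93B1 was lost without core replicate 1 (adjusted p 0.0691) and without core replicate 2 (adjusted p 0.130). CD74 was lost without normal replicates 1, 2, 3 and 4 or core replicates 1 and 2 in turn (adjusted p 0.0523 to 0.214), GRN without normal replicates 1, 2, 3 and 4 or core replicates 1 and 2 in turn (adjusted p 0.0590 to 0.266), LY6D without normal replicates 1, 2, 3 and 4 or core replicates 1 and 2 in turn (adjusted p 0.0581 to 0.204) and PLAC8 without normal replicates 2, 3 and 4 or core replicates 1 and 2 in turn (adjusted p 0.0594 to 0.174). On the T cell marker scale 7 of 20 tested members of the list passed as lower, beside 2.15% of all tested genes. That scale favours falls, with a median of all genes of -0.49.

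The remaining genes with the smallest p among the fallers are not on any list. ORAI3, a subunit of store-operated calcium channels, was at 133, 146, 209 and 166 CPM in normal and 43.5, 30.6 and 18.7 CPM in core libraries, a change of -1.88 ± 0.35 (SE), adjusted p 0.00475. CHDH, a mitochondrial choline dehydrogenase, was at 104, 135, 115 and 189.9 CPM in normal and 27.7, 13.3 and 18.7 CPM in core libraries, a change of -2.02 ± 0.38 (SE), adjusted p 0.00483. PGLS, an enzyme of the pentose phosphate pathway, was at 3236, 2334, 2284 and 1979 CPM in normal and 873, 489 and 1085 CPM in core libraries, a change of -1.51 ± 0.30 (SE), adjusted p 0.00682. In each, every core library was below every normal one. The same held for PNCK, a calmodulin-dependent kinase (change -2.04), FGD2, an exchange factor for CDC42 (change -2.07), TMEM163, a zinc transporter (change -2.23), ARHGEF10L (change -2.11), ATP13A2, a lysosomal transporter (change -1.35), and HAAO, an enzyme of tryptophan breakdown (change -1.82).

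All 10 of these leading fallers kept their call on the T cell marker scale. That scale lowers the core libraries against the normal ones in general, with a median of all genes of -0.49. A fall that still passes there is thus no sign of stability. ORAI3, PNCK, CHDH and TMEM163 passed in every leave-out. Without core replicate 2 the calls of FGD2, ARHGEF10L, PGLS, ATP13A2 and HAAO were lost, at adjusted p 0.0567, 0.0573, 0.0924, 0.0551 and 0.0956. Among marker genes of other cells, TXNDC5, an endoplasmic reticulum enzyme on the plasma cell list, changed by -1.21 ± 0.31 (SE), CLEC12A, a lectin receptor of granulocyte precursors, by -1.28 ± 0.33 (SE), and CD68, a lysosomal protein of macrophages, by -1.05 ± 0.28 (SE). Their adjusted p was 0.0244, 0.0292 and 0.0362. CD68 was the 1 of 8 tested monocyte and macrophage markers that passed, against a median change of 1.30 for these 8. C1QA and C1QB, for example, changed by 1.67 and 1.57 and did not pass. CLEC12A was the 1 of 8 tested granulocyte precursor markers that passed, with a median of -0.33. Of all tested genes 1.79% passed as lower. These 2 genes thus do not stand for their lists. TXNDC5 was lost with any 1 of the 7 libraries left out (adjusted p 0.0518 to 0.123), CLEC12A without normal replicates 2, 3 and 4 or core replicates 1 and 2 in turn (adjusted p 0.0736 to 0.202) and CD68 without normal replicates 1, 2, 3 and 4 or core replicates 1 and 2 in turn (adjusted p 0.0598 to 0.185).

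Whether these changes were those of CD4 cells or of both T cell populations was asked by testing the difference between the CD4 change and the CD8 change. CD8 cells had 4 normal and 2 core libraries, and 83 of 5536 tested genes passed between these (1.5%). Of these, 23 also passed between core and normal CD4 libraries. Of the 10 leading CD4 risers, VPS37B, CTLA4, BHLHE40, RGS1, CCRL2 and PDCD1 also rose and passed in CD8 cells. Their adjusted p by limma was 6.3e-09 to 0.0417. BCL2, NFKBIA, DUSP10 and CEBPB did not pass (adjusted p 0.113 to 0.917), nor did any of the 10 leading fallers (0.0623 to 0.892). A gene passing in 1 population alone does not show that the changes differ. The difference itself passed for 7 of 5536 genes (0.126%), 3 with a positive and 4 with a negative difference, CD4 minus CD8, and 272 had an unadjusted p under 0.05. Leaving out 1 library in turn left 0 to 5 genes, with 0 left without CD8 core replicate 1. The difference was lost in 13 of 13 leave-outs for DGKA, 12 each for ACTN1 and ID2, 10 for S100A4 and 8 for RASGRP2. Over these leave-outs the highest adjusted p was 1.00 for ACTN1, 0.852 for DGKA, 0.852 for RASGRP2, 1.00 for ID2 and 0.852 for S100A4. HAVCR2 and SLC16A11 met the filter on low values only through the 2 core CD8 libraries, where they were high. Their calls were favoured by that filter and rest on both libraries, and neither gene could be tested without 1 of them. Over the other 11 leave-outs HAVCR2 was lost in all 11, with a highest adjusted p of 0.133, and SLC16A11 in 0, with a highest of 0.0280. These 11 leave-outs all keep both core CD8 libraries, so they do not show how the calls depend on those.

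ACTN1 and DGKA rose in CD4 cells, while their values in CD8 cells were lower in the core. ACTN1 was at 86.1 to 101 CPM in normal and 209 to 257 CPM in core CD4 libraries, and at 214, 315, 204 and 299 CPM in normal and 67.5 and 138 CPM in core CD8 libraries. The CD4 change minus the CD8 change was 2.45 ± 0.52 (SE), adjusted p 0.0474. DGKA was at 125 to 208 and 337 to 485 CPM in normal and core CD4 libraries and at 242, 305, 350.2 and 487 and 174 and 173 CPM in those of CD8 cells, a difference of 2.24 ± 0.48 (SE), adjusted p 0.0474. The CD8 changes of these genes, -1.19 and -0.81, did not pass, adjusted p 0.150 and 0.446. RASGRP2, an activator of the GTPase RAP1 named here after its values were seen, was at 160.1 to 219 and 205 to 265 CPM in normal and core CD4 libraries. It fell in CD8 cells by 1.63, to 45.5 and 86.2 CPM, and the difference was 2.06 ± 0.41 (SE), adjusted p 0.0279.

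The other 4 genes rose in CD8 cells and did not pass in CD4 cells. S100A4, a calcium-binding protein of memory and effector T cells, was at 137 to 482 CPM in normal and 407 to 536 CPM in core CD4 libraries. In CD8 cells it was at 242, 122, 172 and 183 CPM in normal and 4469 and 1710.5 CPM in core libraries, and the difference was -3.35 ± 0.64 (SE), adjusted p 0.0279. ID2, a regulator of effector differentiation, was at 205 to 376 and 221 to 393 CPM in CD4 and at 195, 218, 251 and 234 and 1347 and 697 CPM in CD8 cells, a difference of -1.93 ± 0.42 (SE), adjusted p 0.0474. HAVCR2 was at 97.4 and 74.9 CPM in the core CD8 libraries and at 3.95 to 9.31 CPM in the core CD4 libraries, a difference of -2.55 ± 0.56 (SE), adjusted p 0.0474. SLC16A11, a monocarboxylate transporter named after its values were seen, had 0 reads in normal and 9 in core CD4 libraries and 126 and 182 CPM in the core CD8 libraries, a difference of -3.34 ± 0.56 (SE), adjusted p 0.00441.

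PDCD1, LAG3, CTLA4 and TIGIT did not pass this test of the difference. PDCD1 changed by 2.22 in CD4 and 4.52 in CD8 cells, a difference of -2.30 ± 0.56 (SE), adjusted p 0.0934. LAG3 changed by -1.18 in CD4 and 2.62 in CD8 cells, a difference of -3.81 ± 0.83 (SE), adjusted p 0.0581. CTLA4 changed by 2.77 and 2.85, and TIGIT by 1.71 and 2.20, differences of -0.07 ± 0.61 (SE) and -0.50 ± 0.56 (SE). A p that misses the threshold does not show that these genes changed alike, and with 2 core CD8 libraries only large differences could pass.

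**Figure D5:**
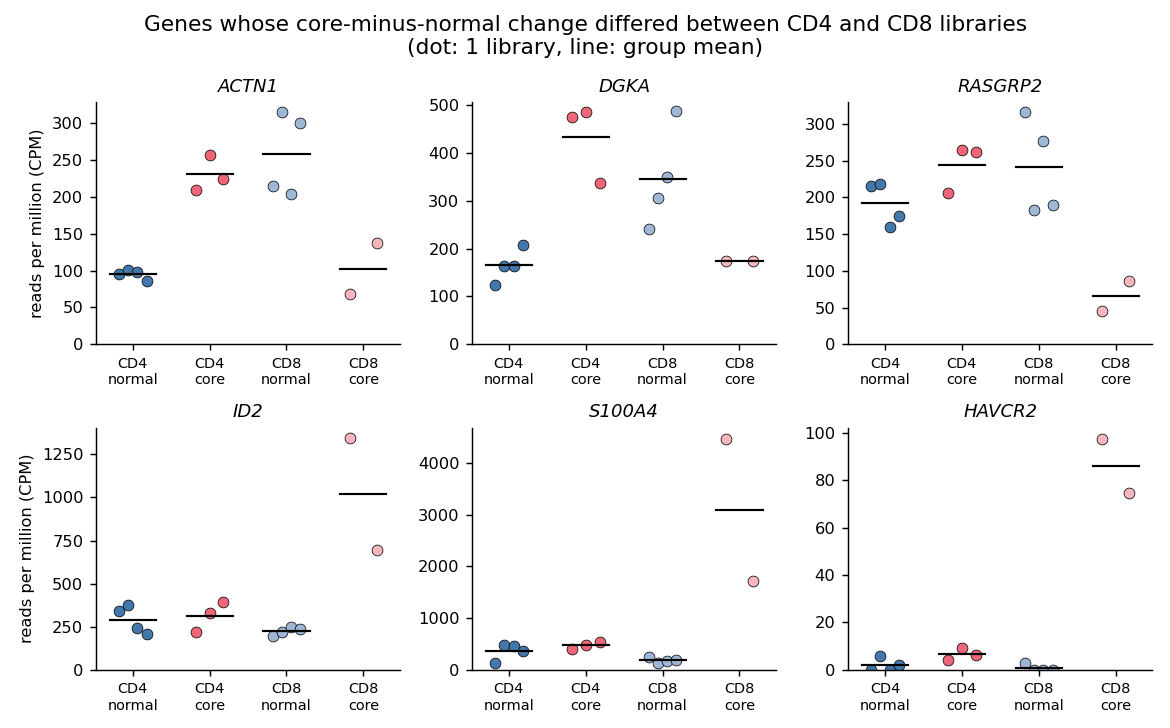
CPM of 6 of the 7 genes whose core-minus-normal change differed between CD4 and CD8 libraries. Each dot is 1 library and each line a group mean. ACTN1 and DGKA are high in the 3 core CD4 libraries and low in the 2 core CD8 libraries, while S100A4, ID2 and HAVCR2 are high in the core CD8 libraries alone.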

How the data were processed

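RNA of sorted mouse cells was made into MARS-seq libraries. Per the submitters' processing notes, fastp 0.20.0, STAR 2.6.0c, DESeq2 1.30.1 and GRCm38 (mm10) were used. For the counting of tags and genes, the tool and its settings are not given in the sources used here. Deposited by the authors is a signal, whole reads multiplied by 1 factor per library: divided by the value of 1 read, 100% were whole within 0.01. These recovered reads gave CPM and the count tests. Symbols are human-style, and 15695 of 15728 equal a mouse symbol in capitals. Features without a symbol were left out.

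Because the values are scaled, the test is limma 3.58.1 (R 4.3.3, trend and robust variance) on log2(value + 4), with genes of value 10 or more in at least 3 of the 15 CD4 libraries and 1 group term, Benjamini-Hochberg adjusted over all tested genes. The CD8 difference used 27 CD4 and CD8 libraries and value 10 or more in at least 2. TIGIT, CREM, FOSL2, GADD45A and TGIF1 met the first filter only through the 3 core libraries, where they were high. Counts and medians of lists that hold them therefore lean toward rises. HAVCR2 and SLC16A11 met the second filter only through the 2 core CD8 libraries. The procedure was also run on simulated counts. These held no RNA of other cells that split the libraries, so that run cannot vouch for the calls made here. Alternatives were edgeR 4.0.16, DESeq2 1.42.0 and limma-voom on recovered reads, TMM and RLE scaling, pseudocounts 1 and 16, other filters, leaving out each library, a replicate block, and, chosen after the data were seen, T cell marker scaling (12 markers) and lung transcripts. Libraries count as holding lung transcripts where 10 lung genes summed to over 200 in deposited values.

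Members, lists and tests were chosen with earlier results of these data known. Named genes are the 10 with the smallest p in each direction (adjusted p under 0.05, change of at least 1, higher group's mean 20 CPM or more), passing list members, up to 4 members per list by p, and 15 fixed genes. A named gene of the T cell receptor list is not reported here, though the list's counts include it. Promoters are RefSeq's (GRCm38.p6), and no set test was run.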

Additional observations from a re-analysis of the deposited data

Results flagged for a closer look

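Values of single normal libraries stood apart from the other 3 by Dixon's criterion in 6 of 115 items checked, where chance gives about 1 in 20. VPS37B was lowest in normal replicate 4 at 115 CPM and CD4 lowest in normal replicate 1 at 357 CPM. TNFRSF9 was highest in normal replicate 2 at 95.4 CPM, as was S100A9 at 2003 CPM. BST2 was highest in normal replicate 1 at 2177 CPM, and so were the summed stem and progenitor cell markers at 540.1 CPM. The core group of 3 was not checked in this way.

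The CD4 change minus the CD8 change, core against normal, passed for 7 genes: ACTN1 (2.45), DGKA (2.24), RASGRP2 (2.06), HAVCR2 (-2.55), ID2 (-1.93), S100A4 (-3.35) and SLC16A11 (-3.34).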

How the results depend on the processing

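Beside the 172 genes passing between core and normal marrow, DESeq2 gave 278 (171 shared), limma-voom 261 (161 shared) and the 7 libraries alone 329. Leaving out 1 library gave 30 to 127. Lung transcripts as a covariate gave 229, only libraries with lung transcripts 384, the 1 normal and 1 core library without them 0 (a design too small to say anything of stability), and T cell marker scaling 119 (80 shared). Pseudocounts 1 and 16, both filters, TMM, RLE and edgeR gave 132 to 224.

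The CD8 difference passed for 7 genes, for 0 at pseudocount 1, 13 by edgeR, and 0 to 5 with 1 library left out. With lung transcripts as a covariate 8 passed, 2 of them also among the CD4 calls.

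Replicate numbers did not pair the libraries: deviations of same-numbered normal and core libraries correlated at 0.09, -0.34 and -0.26. With the replicate number as a block 171 genes passed, 84 higher and 87 lower (146 shared), and 4 for the CD8 difference.

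CD4, close to no change at -0.01, changed sign under edgeR (0.020), DESeq2 (0.066) and the replicate block (0.042), ran from -0.31 to 0.32 with 1 library left out, and changed sign with the lung covariate (0.0026) and in libraries with lung transcripts (0.35). On the T cell marker scale ID2, RASGRP2 and S100A4 turned to -0.51, -0.28 and -0.11. The cause was not tested.

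Genes under about 50 reads per group, TIGIT among them, limit what these depths can show.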
